A study of Mus musculus with 6 samples.

Results

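The interleukin genes and the genes of their receptors were examined in dendritic epidermal T cells (DETC), the γδ T cells that live in the mouse epidermis. Of 20300 genes measured, 80 have a symbol that starts with Il and a digit, and 63 of them were taken here (37 ligands, binding proteins and other interleukin-named genes, and 26 receptor chains). The 17 genes set aside by the rule are Il2, Il17a, Il17f and receptor chains used by IL-2, IL-12, IL-18, IL-23 and other cytokines (Il7r, Il21r and Il12rb2 among them). The rule reads only the symbols, but it was drawn up with earlier results of these data known, and 6 of those 17 genes (35.3%) passed the test between the genotypes described below, 3 in each direction, so the 63 genes do not stand for all interleukin genes.

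RNA was measured on 3 Clariom S Mouse arrays of Ahr-ko DETC and 3 of Ahr-het DETC. Ahr-ko mice carried the B6.129-Ahrtm1Bra/J knockout allele of the aryl hydrocarbon receptor gene on both chromosomes, and their Ahr-het littermates carried it on 1 chromosome. No array of mice without the allele was used here, and the knockout was in every cell of the mouse. The mice were 2 weeks old and of both sexes, and each array held RNA pooled from 2 to 3 mice. Cells from back and belly epidermis were stained for the γδ T cell receptor and its Vγ3 chain and sorted to a purity of 90 to 98%, and of the live cells of the epidermis DETC were 2 to 4% in Ahr-ko mice and 10 to 15% in Ahr-het mice. The paper calls the mice wildtype where the labels give these genotypes, and the labels were followed.

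Values are log2 expression levels that had been normalized over all arrays. As a background limit, each array was given the level below which 95% of its 1391 genes for smell receptors (olfactory and vomeronasal) lay. It was 7.55 to 7.63 in Ahr-ko and 7.46 to 7.56 in Ahr-het. Above this limit lay 57.4 to 60.2% of the 20300 genes on each array. Arrays of 1 genotype correlated at 0.985 to 0.991 on average. All 10 markers of DETC and T cells were above the limit on all 6 arrays, and none of 6 B cell markers was above it on all 3 arrays of a genotype. Of 12 keratinocyte markers, 10 were above it on all 3 Ahr-ko arrays and 11 on all 3 Ahr-het arrays. Of 9 Langerhans cell markers, 6 were above it in each genotype. The Ahr gene itself had levels of 10.00, 10.40 and 10.39 in Ahr-ko and 10.77, 10.62 and 10.72 in Ahr-het, with a log2 fold change of -0.44 (SE, the standard error, 0.13, and limma's adjusted p = 0.177). The groups did not overlap, but where its probes lie relative to the deleted part is not given, so this gene is no check of the labels.

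Interleukins are secreted proteins by which immune and epithelial cells signal to each other. Their receptors are assembled from 2 or more chains, of which some bind 1 cytokine only and others are shared by a whole family. Thus gp130, encoded by Il6st, serves IL-6, IL-11, IL-27 and leukemia inhibitory factor, the IL-10 receptor pairs Il10ra with Il10rb, and the IL-17 receptor pairs Il17ra with chains such as Il17rc. DETC are known to respond to keratinocyte cytokines and to release IL-13, IL-17 and growth factors after damage to the skin.

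The aryl hydrocarbon receptor is a transcription factor that binds DNA at a core of 5 bases, GCGTG. For 4 receptor chains among the 9 genes described in most detail below, the 250 bases before the start of transcription are shown (Il6ra, Il6st, Il3ra and Il20ra), from the RefSeq table of GRCm38.p6, in lower case with each GCGTG, read on either strand, in capitals. Il6ra encodes the chain that binds IL-6, Il6st the chain that signals for it, Il3ra the chain that binds IL-3, and Il20ra a chain for IL-19, IL-20 and IL-24. The other receptor chains among the 9 genes are Il10ra, Il17ra, Il10rb and Il27ra.
Il6ra promoter, chr3:89913197-89913446, minus strand: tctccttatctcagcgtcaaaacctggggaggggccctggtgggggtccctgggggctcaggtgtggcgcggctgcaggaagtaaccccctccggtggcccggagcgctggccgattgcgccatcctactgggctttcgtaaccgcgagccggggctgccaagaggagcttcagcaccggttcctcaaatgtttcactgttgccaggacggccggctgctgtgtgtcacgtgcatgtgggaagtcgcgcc
Il6st promoter, chr13:112463820-112464069, plus strand: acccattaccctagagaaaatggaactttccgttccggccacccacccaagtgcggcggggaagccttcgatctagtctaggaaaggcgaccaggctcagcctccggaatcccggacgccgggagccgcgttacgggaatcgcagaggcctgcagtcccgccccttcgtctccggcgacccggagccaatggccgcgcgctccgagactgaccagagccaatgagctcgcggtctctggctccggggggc
Il3ra promoter, chr14:14346245-14346494, plus strand: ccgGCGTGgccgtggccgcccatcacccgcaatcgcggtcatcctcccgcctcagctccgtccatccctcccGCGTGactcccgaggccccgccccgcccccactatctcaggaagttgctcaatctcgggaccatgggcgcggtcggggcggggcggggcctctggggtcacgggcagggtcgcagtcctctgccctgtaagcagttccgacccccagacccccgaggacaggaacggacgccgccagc
Il20ra promoter, chr10:19712337-19712586, plus strand: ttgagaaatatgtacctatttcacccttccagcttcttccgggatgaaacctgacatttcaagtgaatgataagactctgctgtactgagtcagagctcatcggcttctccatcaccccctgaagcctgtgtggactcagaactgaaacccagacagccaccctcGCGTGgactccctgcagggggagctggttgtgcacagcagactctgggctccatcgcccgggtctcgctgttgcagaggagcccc
The stretches before Il6ra and Il6st hold no match. The stretch before Il3ra holds 2 matches, which begin at -247 and -178 from the start, and the stretch before Il20ra holds 1, at -85. In the window from 250 bases before to 50 after the start, Il6ra has 1 match, at 16 after the start, and Il20ra a further one at 9 after it. The table held this window for 48 of the 63 genes, of which 14 (29.2%) had a match, and for 16019 of all genes tested, of which 6916 (43.2%) had one. A match is a description of the letters and not a site.

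Between the genotypes, 4 of the 63 genes passed the threshold of 0.05 for the adjusted p of limma, and all 4 are receptor chains. Il10ra, Il6st and Il6ra were lower in Ahr-ko DETC, by 2.27, 1.87 and 0.69 on the log2 scale, and Il17ra was higher by 0.81. None of the 37 ligands and other genes passed, although 1 of them had an unadjusted p under 0.05. Those 4 are 6.35% of the 63 genes, while 3.14% of all 20300 genes passed. For genes below the limit in both genotypes, a difference of log2 levels is not read as a fold. In the single directions, 1 of 63 was higher (1.58% of all genes) and 3 of 63 were lower (1.57% of all genes).

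At an unadjusted p under 0.05 there were 9 of 63 genes (14.3%), against 13.2% of all genes, so by this count the interleukin genes were near the background. The count takes in genes above the limit in neither genotype, which were 41 of the 63 and 8566 of all 20300 genes. The 2 genotypes did not overlap for 17 of 63 genes (27.0%), against 18.7% of all genes. The median log2 fold change was -0.03 over the 63 genes and 0.0038 over all genes. The median size of the change, whatever its sign, was 0.13 over the 63 genes and 0.12 over all genes. The p-values set the difference between the genotypes against the spread between pools, not between single mice. In bulk RNA, fewer cells that express a gene and less RNA per cell cannot be told apart.

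Equal replicate numbers of both genotypes deviated together, and adding the replicate number to the fit as a block called 9 of the 63 genes (4 higher, 5 lower), against 7.58% of all genes. The 5 added were Il34, Il3ra, Il10rb, Il27ra and Il1rl2. The adjusted p under the block is given with each of these genes.

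**Figure D1:**
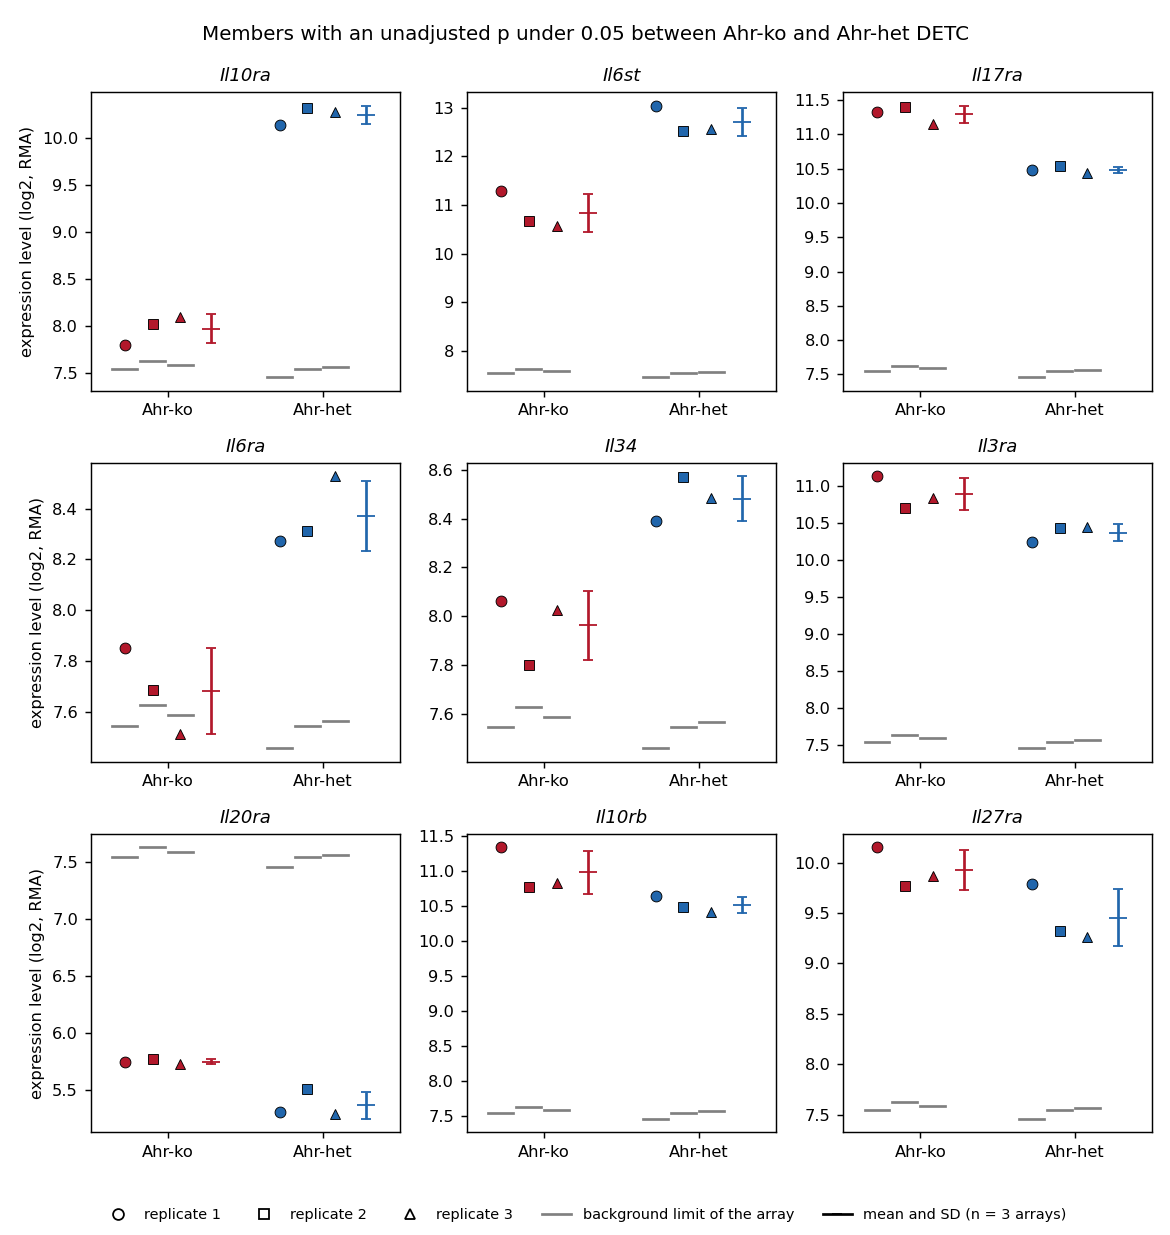
Log2 expression level (vertical axis, own scale per gene) of the 9 genes with an unadjusted p under 0.05, on the 3 Ahr-ko arrays (red, left) and the 3 Ahr-het arrays (blue, right) of each panel. Symbols mark replicates, grey lines the background limit of each array, and bars the mean with its SD. For Il10ra the Ahr-ko arrays lie at 7.81 to 8.10 and the Ahr-het arrays at 10.14 to 10.33.

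The receptor chain specific to IL-10 showed the largest difference of the 63 genes. Il10ra (gene ID 16154, chromosome 9) had levels of 7.81, 8.02 and 8.10 on the Ahr-ko arrays and of 10.14, 10.33 and 10.28 on the Ahr-het arrays. All 3 Ahr-ko arrays lay below every Ahr-het array and only 0.26 to 0.52 above their background limits, whereas the Ahr-het arrays lay 2.68 to 2.78 above theirs. This was a log2 fold change of -2.27 (SE 0.12), or 4.84-fold on the linear scale, with an adjusted p of 2.99e-05 from limma. It ranged from -2.34 to -2.19 when each array was left out in turn, and all 6 of these fits called it. Against a limit at the 99th percentile, Il10ra was below it on all 3 Ahr-ko arrays, which would make it at least 3.67-fold lower in Ahr-ko. With a limit from tissue-restricted genes of other organs it would be at least 2.34-fold lower.

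Its partner chain was not lower. Il10rb (gene ID 16155, chromosome 16), which IL-22 and other members of the IL-10 family also use, had levels of 11.34, 10.77 and 10.83 in Ahr-ko and of 10.64, 10.48 and 10.42 in Ahr-het. The 3 Ahr-ko arrays were all above the 3 Ahr-het arrays, with replicate 1 the highest in both genotypes. At a log2 fold change of 0.47 (SE 0.16), it had an adjusted p of 0.249 from limma and of 0.0405 with the replicate number as a block.

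Of the other IL-10 family receptor chains, Il20ra (gene ID 237313, chromosome 10), which binds IL-19, IL-20 and IL-24, had levels of 5.75, 5.77 and 5.73 in Ahr-ko and of 5.31, 5.50 and 5.29 in Ahr-het. These did not overlap, but all 6 lay at -1.80 or lower relative to the background limit, so no fold is given (adjusted p = 0.124 from limma). Il20rb, Il22ra1 and the soluble IL-22 binding protein Il22ra2 differed by -0.03 to 0.04 on the log2 scale, and none was above the limit on all 3 arrays of a genotype.

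Among the IL-10 family ligands, Il22, which acts on keratinocytes, was above the limit on 1 of 3 Ahr-ko arrays and 3 of 3 Ahr-het arrays. Its levels were 8.38, 7.36 and 7.14 in Ahr-ko and 8.12, 7.59 and 7.59 in Ahr-het. The groups overlapped, and its log2 fold change of -0.14 had a 95% interval from -0.85 to 0.57. Il10 lay below the limit on all 6 arrays, at 7.27, 7.24 and 7.12 in Ahr-ko and at 7.42, 7.36 and 7.31 in Ahr-het, so no fold is given although the groups did not overlap. Il19, Il20 and Il24 were below the limit on every array too.

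The shared chain gp130 was lower in Ahr-ko DETC as well, but stayed far above background. Il6st (gene ID 16195, chromosome 13) had levels of 11.29, 10.67 and 10.57 in Ahr-ko and of 13.05, 12.53 and 12.56 in Ahr-het. Replicate 1 was the highest in both genotypes, and no Ahr-ko array reached an Ahr-het array. Il6st had a log2 fold change of -1.87 (SE 0.22, 3.65-fold, adjusted p = 0.00236 from limma). Array by array of equal number the difference was -1.75, -1.86 and -1.98, and all 6 fits that left out 1 array called it, with values of -2.09 to -1.70.

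Il6ra (gene ID 16194, chromosome 3), the chain that gives gp130 its specificity for IL-6, had levels of 7.85, 7.69 and 7.51 in Ahr-ko and of 8.27, 8.31 and 8.53 in Ahr-het. The groups did not overlap, and the gene was above the limit on 2 of 3 Ahr-ko arrays and on 3 of 3 Ahr-het arrays. With the limit at the 99th percentile it was above on 0 Ahr-ko arrays and 2 Ahr-het arrays. With the limit from tissue-restricted genes of other organs it was above on 0 arrays of either genotype. Il6ra was lower in Ahr-ko (log2 fold change -0.69, SE 0.13, adjusted p = 0.0269 from limma). This call was lost without Ahr-het replicate 2 (adjusted p = 0.10), Ahr-het replicate 3 (0.120), Ahr-ko replicate 2 (0.0862) or Ahr-ko replicate 3 (0.127), all from limma, while the fold change kept its sign.

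The IL-27 and IL-11 chains that pair with gp130 were not lower. Il27ra (gene ID 50931, chromosome 8), which joins gp130 in the IL-27 receptor, had levels of 10.15, 9.77 and 9.87 in Ahr-ko and of 9.79, 9.32 and 9.26 in Ahr-het. Ahr-het replicate 1 reached into the range of Ahr-ko, so the groups overlapped by 1 array, but every Ahr-ko array was above the Ahr-het array of equal number, by 0.37, 0.45 and 0.61. The log2 fold change of 0.48 (SE 0.17) had an adjusted p of 0.256 from limma and of 0.0246 with the replicate number as a block.

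Il11ra1, the chain that binds IL-11, had levels of 10.51, 10.63 and 10.43 in Ahr-ko and of 10.49, 10.52 and 10.36 in Ahr-het. The genotypes overlapped, with a log2 fold change of 0.07 and a 95% interval from -0.18 to 0.31. Il31ra, of the IL-31 receptor, was below the limit on all 6 arrays.

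The ligands of the gp130 and IL-12 families, taken as 1 group, were mostly at background. Of 7 genes (Il6, Il11, Il12a, Il12b, Il23a, Il27 and Il31), 1 was above the limit on all arrays, and none passed the test. That gene was Il12b, the p40 chain of IL-12 and IL-23, with levels of 7.87, 7.85 and 7.66 in Ahr-ko and of 7.85, 7.84 and 7.91 in Ahr-het. The levels overlapped and lay at most 0.39 above the limit. On the log2 scale the 7 genes differed by -0.24 for Il27 to 0.50 for Il23a, and Il6 lay at -2.88 or lower relative to the limit on every array.

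The IL-17 receptor chain moved the other way. Il17ra (gene ID 16172, chromosome 6), which the receptors for IL-17A, IL-17F, IL-17C and IL-25 share, had levels of 11.33, 11.40 and 11.15 in Ahr-ko and of 10.48, 10.54 and 10.44 in Ahr-het. All 3 Ahr-ko arrays were above all 3 Ahr-het arrays. The log2 fold change was 0.81 (SE 0.11, 1.75-fold, adjusted p = 0.00459 from limma), and it stayed between 0.76 and 0.88 in the 6 fits without 1 array, all of which called it.

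Its partner Il17rc, needed for signals of IL-17A and IL-17F, had levels of 9.18, 9.21 and 9.15 in Ahr-ko and of 9.03, 9.13 and 9.08 in Ahr-het. These did not overlap, but the log2 fold change was 0.10 with a 95% interval from -0.12 to 0.32 (adjusted p = 0.764 from limma). Il17rd, a further family member, had levels of 8.48, 7.91 and 8.23 in Ahr-ko and of 8.34, 8.22 and 8.16 in Ahr-het, which overlapped. Il17rb, the chain for IL-25, and Il17re, the chain for IL-17C, were below the limit on every array.

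All 4 IL-17 family ligands taken here were above the limit on all 6 arrays, and none passed the test. With the limit from tissue-restricted genes of other organs, Il17b stayed above on all 6 arrays. Il17c, Il17d and Il25 were then above on 0 arrays of either genotype. Il17b had levels of 10.14, 10.18 and 9.96 in Ahr-ko and of 9.85, 10.18 and 10.09 in Ahr-het. Il17c, which epithelial cells release, had levels of 8.30, 8.33 and 8.54 in Ahr-ko and of 8.34, 8.40 and 8.16 in Ahr-het. Both genes overlapped between the genotypes.

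Il17d had levels of 8.59, 8.84 and 8.53 in Ahr-ko and of 8.65, 8.74 and 8.88 in Ahr-het, again with overlap. Il25, which encodes a cytokine of type 2 responses, had levels of 7.77, 7.74 and 7.74 in Ahr-ko and of 7.91, 7.81 and 7.84 in Ahr-het. These did not overlap, but they differed by only 0.11 on average and lay at most 0.45 above the limit. Over the 4 ligands the log2 fold changes ran from -0.11 to 0.09.

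**Figure D2:**
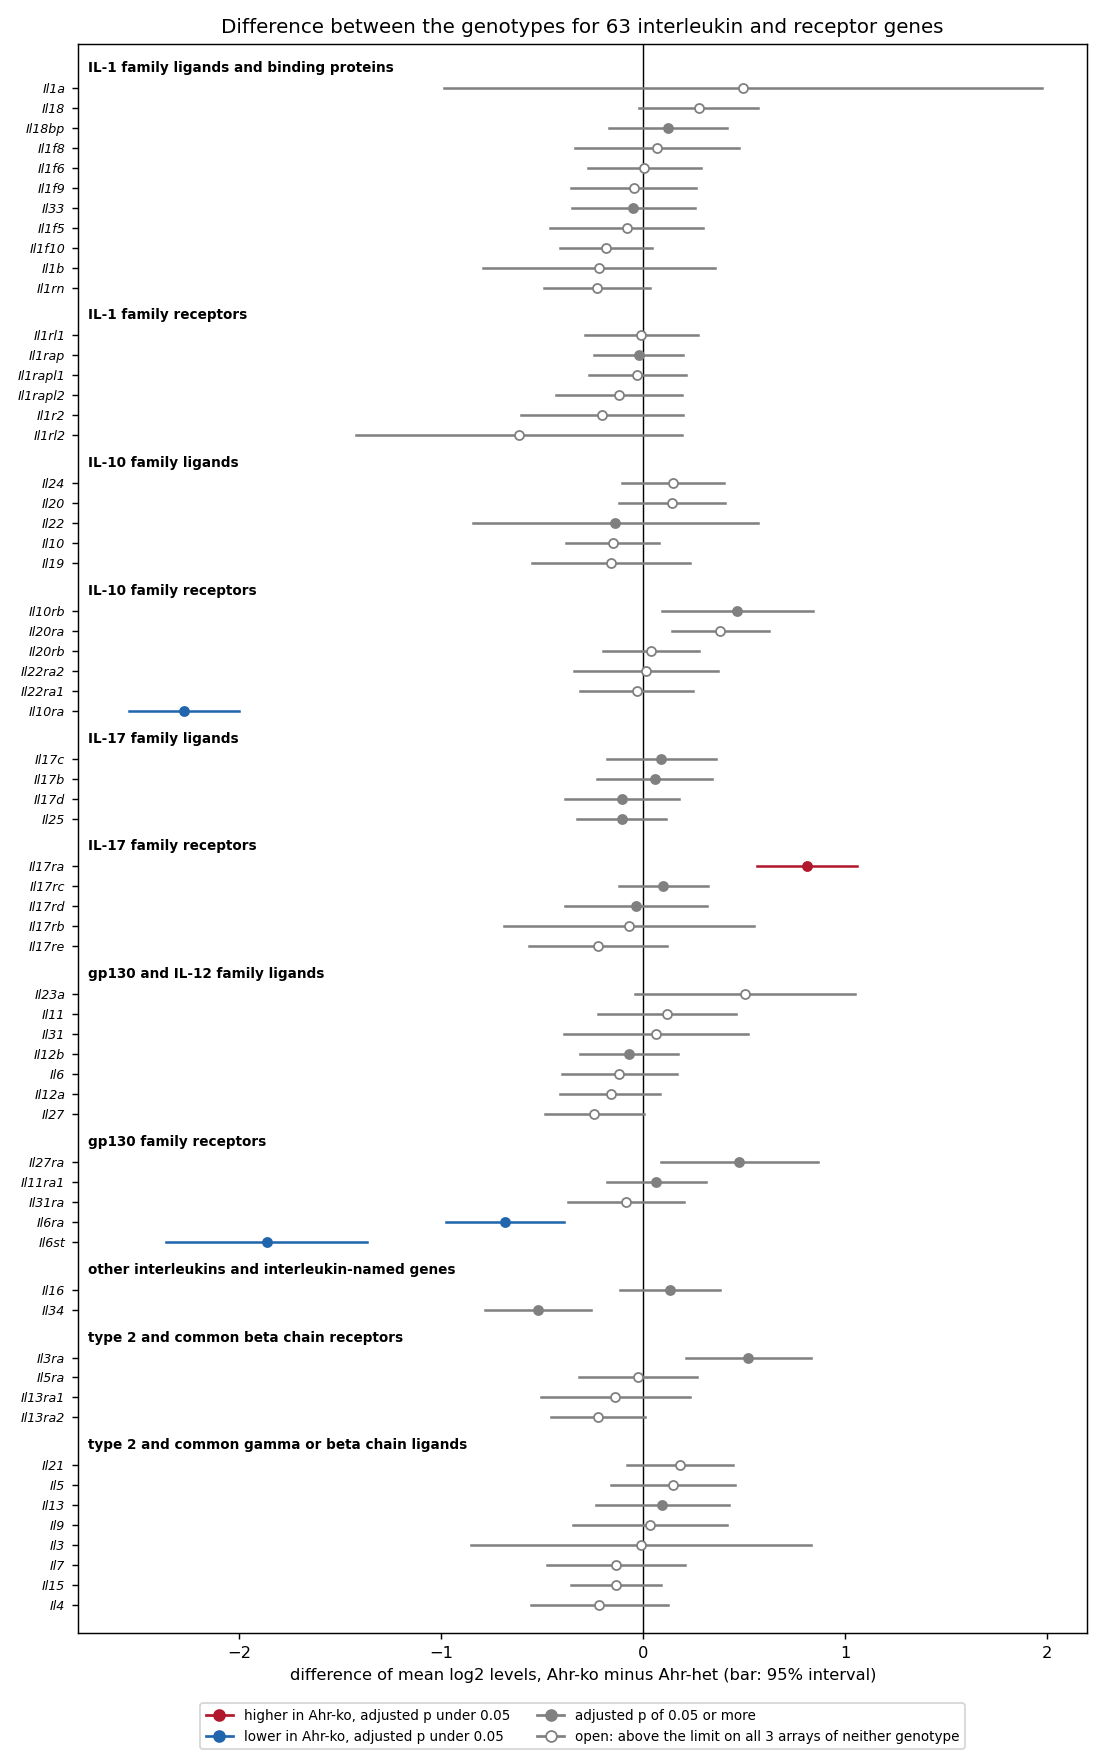
Difference of the mean log2 levels, Ahr-ko minus Ahr-het (horizontal axis), with its 95% interval for all 63 genes, grouped by family (vertical axis). Blue and red mark the 4 genes that passed the adjusted p, 3 lower and 1 higher in Ahr-ko, and open circles the 41 genes above the background limit on all 3 arrays of neither genotype.

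Of the receptor chains for type 2 and common beta chain cytokines, Il3ra was above background. Il3ra (gene ID 16188, chromosome 14) had levels of 11.13, 10.71 and 10.85 in Ahr-ko and of 10.25, 10.43 and 10.44 in Ahr-het. The groups did not overlap, and Ahr-ko replicate 1 was the highest. Its log2 fold change of 0.52 (SE 0.14) had an adjusted p of 0.102 from limma and of 0.0483 with the replicate number as a block. Il5ra and the IL-13 binding chain Il13ra2 were below the limit on all 6 arrays, and Il13ra1 was above it on 1 Ahr-het array.

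Among the ligands of type 2, common gamma chain and common beta chain cytokines, Il13 stood above background. This cytokine, which acts on epithelium, had levels of 11.15, 10.86 and 11.11 in Ahr-ko and of 10.69, 11.11 and 11.03 in Ahr-het. The genotypes overlapped, and the log2 fold change of 0.09 had a 95% interval from -0.24 to 0.42. Il3, Il4, Il5, Il7, Il15 and Il21 lay below the limit on all 6 arrays, and Il9 was above it on 1 Ahr-het array. These 7 genes differed by -0.22 to 0.18 on the log2 scale and none passed the test.

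Il34 encodes a ligand of the CSF1 receptor that maintains Langerhans cells, the dendritic cells of the epidermis, and keratinocytes are a known source. Il34 (gene ID 76527, chromosome 8) had levels of 8.06, 7.80 and 8.03 in Ahr-ko and of 8.39, 8.57 and 8.48 in Ahr-het. The groups did not overlap, and the Ahr-ko arrays were within 0.52 of their limits. With a limit at the 99th percentile Il34 was above on 0 Ahr-ko and 3 Ahr-het arrays. With the limit from tissue-restricted genes of other organs it was above on 0 arrays of either genotype. The log2 fold change of -0.52 (SE 0.11) had an adjusted p of 0.0555 from limma and of 0.0282 with the replicate number as a block. Il16, whose product attracts CD4+ cells, had levels of 9.03, 8.79 and 8.96 in Ahr-ko and of 8.86, 8.73 and 8.79 in Ahr-het, which overlapped.

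The IL-1 family was mostly at or below background. Of its 11 ligands and binding proteins, Il18bp and Il33 were above the limit on all 6 arrays, and no gene passed the test. Il33, an alarm signal of epithelial cells, had levels of 7.66, 8.06 and 7.95 in Ahr-ko and of 7.97, 8.03 and 7.81 in Ahr-het. Il18bp, which binds and blocks IL-18, had levels of 8.09, 8.10 and 8.12 in Ahr-ko and of 8.20, 7.77 and 7.98 in Ahr-het. Both overlapped between the genotypes and stayed within 0.74 of the limit.

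Il18, Il1rn, which encodes the IL-1 receptor antagonist, and Il1f5, Il1f6, Il1f8, Il1f9 and Il1f10, which include the IL-36 cytokines, were below the limit on every array. On the log2 scale the 11 genes differed by -0.23 for Il1rn to 0.50 for Il1a. Of the 6 IL-1 family receptors, Il1rap, the chain that several of them share, was above the limit on 1 of 3 Ahr-ko arrays and 3 of 3 Ahr-het arrays. Its levels were 7.62, 7.48 and 7.56 in Ahr-ko and 7.59, 7.56 and 7.58 in Ahr-het, so the genotypes overlapped at the limit itself. Il1rl1, the IL-33 receptor, the decoy receptor Il1r2, Il1rapl1 and Il1rapl2 were below the limit on all 6 arrays.

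**Figure D3:**
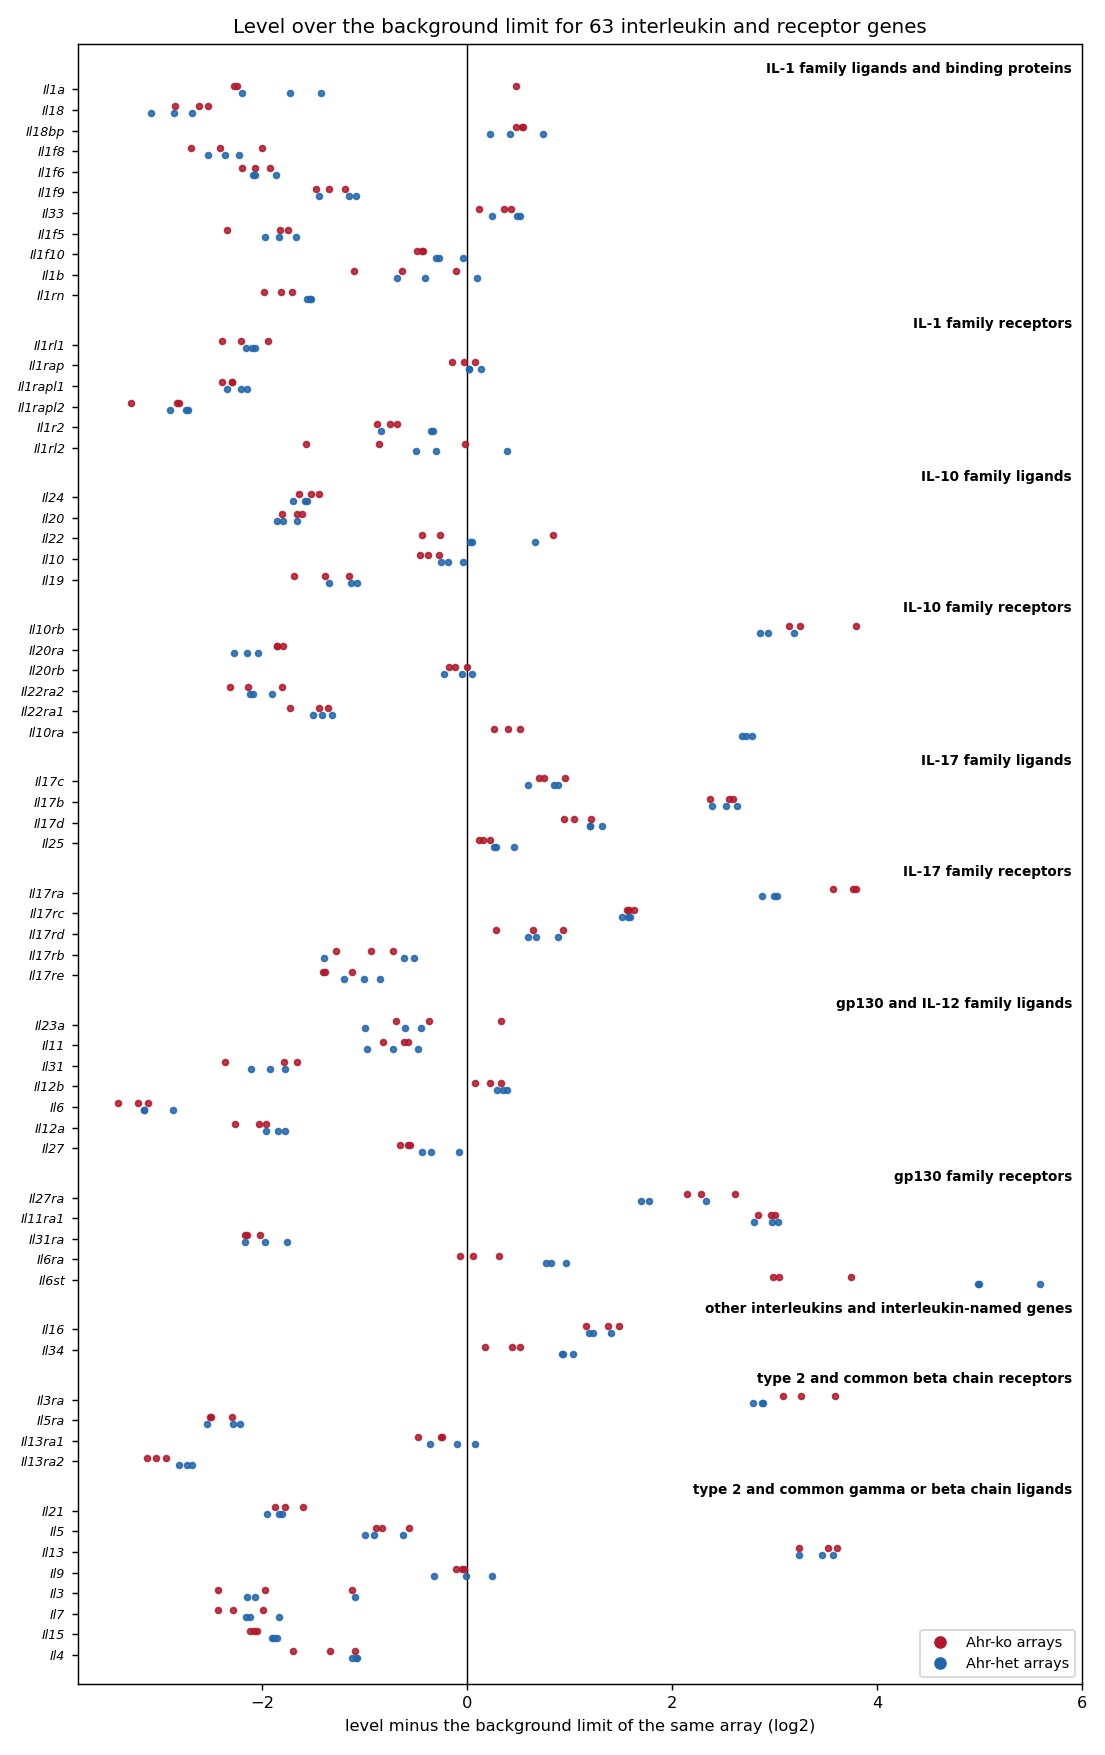
Log2 level minus the background limit of the same array (horizontal axis) for all 63 genes by family (vertical axis), with the 3 Ahr-ko arrays in red above the 3 Ahr-het arrays in blue. The vertical line marks the limit. Il6st reaches 5.59 over it in Ahr-het, while 34 genes stay below it on all 6 arrays.

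Counted over all 63 genes, 19 were above the limit on all 3 Ahr-ko arrays (30.2%, against 55.0% of all genes) and 22 on all 3 Ahr-het arrays (34.9%, against 56.4%). The 19 were also above it in Ahr-het, and the other 3 were Il6ra, Il22 and Il1rap. A further 34 genes were below the limit on all 6 arrays. With a limit at the 99th percentile, 11 genes in Ahr-ko and 13 in Ahr-het were above it. Of the 18 genes above the limit in a genotype that did not pass the test, 13 had a 95% interval that lay within 0.5 of 0 on both sides, and the other 5 had wider or shifted intervals.

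Some genes differed more between arrays of 1 genotype than between genotypes. An SD over 0.3 in at least 1 genotype was found for 14 of the 63 genes, and the share of all genes with such an SD was not counted. Among the 14 are Il6st and Il10rb, whose genotypes did not overlap. Il1a, an IL-1 that epithelial cells hold in store, had levels of 8.02, 5.38 and 5.31 in Ahr-ko and of 6.03, 5.82 and 5.37 in Ahr-het. Only Ahr-ko replicate 1 was above the limit. The difference of 0.50 had a 95% interval from -0.99 to 1.98 and changed sign without that array, at -0.40.

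Il1b, the secreted IL-1 of myeloid cells, had levels of 7.44, 6.52 and 6.95 in Ahr-ko and of 7.55, 6.86 and 7.15 in Ahr-het. Il1rl2, the IL-36 receptor, had levels of 7.52, 6.06 and 6.73 in Ahr-ko and of 7.84, 7.05 and 7.26 in Ahr-het. Il23a, the p19 chain of IL-23, had levels of 7.87, 6.94 and 7.22 in Ahr-ko and of 7.01, 6.55 and 6.95 in Ahr-het. In these 3 genes, as in Il1a and Il22, replicate 1 was the highest array of both genotypes. Il1b and Il1rl2 were above the limit on Ahr-het replicate 1 only, and Il23a on Ahr-ko replicate 1 only.

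Replicate 1 was the highest array of both genotypes in 15 of the 63 genes (23.8%), against 26.3% of all genes. For Il1rl2 the adjusted p was 0.542 from limma and 0.0272 with the replicate number as a block, but no fold is given because neither genotype was above the limit on all its arrays. Il3, a growth factor of blood cells, spread without such an order, at 6.42, 5.19 and 5.61 in Ahr-ko and at 5.31, 6.45 and 5.49 in Ahr-het, all below the limit. On Ahr-ko replicate 1 the mean level of 9 Langerhans cell markers was 8.52, against 8.05 and 8.10 on the other Ahr-ko arrays and 8.08 to 8.26 in Ahr-het. That array was the highest of Ahr-ko for H2-Eb1, H2-Ab1, H2-Aa, Cd86, Csf1r and Ctss. It was not the highest for Cd207 (7.51, against 7.81 and 7.42), Epcam (8.58, against 8.55 and 8.68) and Mfge8. The part of Langerhans cells in the levels of Il1a, Il1b, Il1rl2 and Il23a was not tested.

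**Figure D4:**
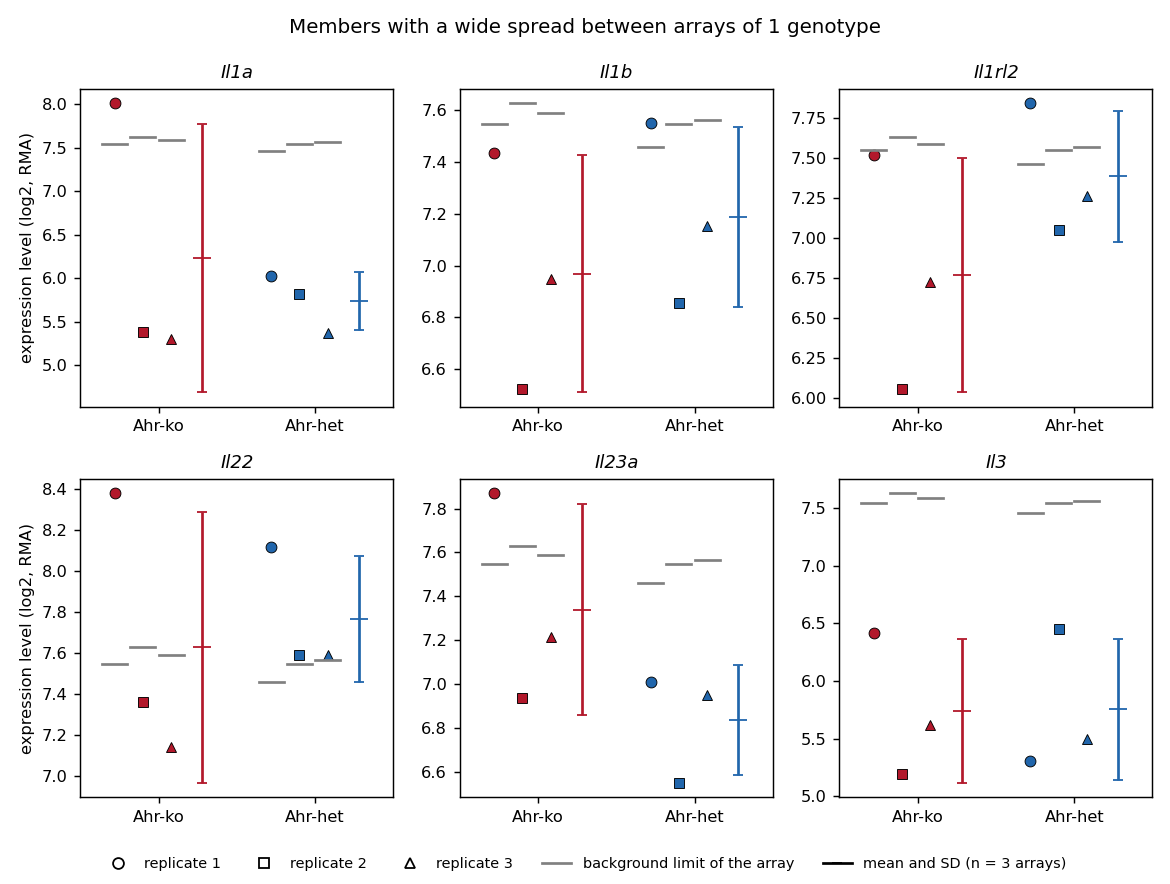
Log2 expression level (vertical axis, own scale per gene) of 6 genes with a wide spread, on the 3 Ahr-ko arrays (red, left) and the 3 Ahr-het arrays (blue, right) of each panel, with the background limit of each array in grey and the mean with its SD at the side. Replicate 1 (circles) is the highest array of both genotypes in all but Il3.

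Genes that work with these cytokines and receptors were read from the same fit. Of 77 such genes, 3 passed the test (3.90%, against 3.14% of all genes). None of 25 genes of IL-1 receptor signalling passed, and none of 19 ligands and receptors of the same families without an Il symbol, such as Lif, Osmr and Csf1r. Of 11 genes of IL-17 receptor signalling 1 passed, and of 22 kinases, STATs and SOCS genes 2. With the replicate number as a block 10 of the 77 passed (4 higher, 6 lower): 2 of IL-1 receptor signalling, 2 of IL-17 receptor signalling, 6 of the kinases, STATs and SOCS genes and none of the 19. The 7 added were Nfkb1, Stat3 and Stat5a, which were higher, and Casp1, Traf3, Ptpn6 and Ptpn11, which were lower, with adjusted p of 0.00558 to 0.0349 under the block and of 0.0631 to 0.399 without it, all from limma. Casp1 was below the limit on all 6 arrays.

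Traf3ip2, which encodes Act1, the adaptor that binds the IL-17 receptor chains, was lower in Ahr-ko, while Il17ra was higher. Its levels were 9.48, 8.86 and 9.24 in Ahr-ko and 10.69, 10.39 and 10.49 in Ahr-het, without overlap. It differed by -1.33 on the log2 scale (SE 0.17, adjusted p = 0.00365 from limma).

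Socs2, a feedback inhibitor of cytokine receptors, had levels of 7.87, 7.72 and 7.63 in Ahr-ko and of 8.62, 9.06 and 8.995 in Ahr-het. It was lower on every Ahr-ko array, with a log2 fold change of -1.15 (SE 0.14, adjusted p = 0.00322 from limma). The Ahr-ko arrays lay only 0.044 to 0.325 above their limits. Stat4, which carries the signal of IL-12, had levels of 9.58, 9.57 and 9.37 in Ahr-ko and of 8.06, 7.14 and 7.65 in Ahr-het, where 2 of 3 arrays were above the limit. It was higher on every Ahr-ko array, with a log2 fold change of 1.89 (SE 0.21, adjusted p = 0.00194 from limma).

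Markers of other cells that the sorts could hold moved in part with the genotype. Of 12 keratinocyte markers 1 was lower in Ahr-ko (Dsp, a desmosome protein, by 1.22), and their mean level was 8.63 to 8.95 in Ahr-ko and 8.85 to 9.06 in Ahr-het. Their log2 fold changes ran from -1.22 to 0.21, with a median of -0.02. Of 9 monocyte, macrophage and neutrophil markers 1 was lower (Fcgr3), with means of 6.99 to 7.05 in Ahr-ko and 7.01 to 7.31 in Ahr-het. Cd68 and Fcgr3 were above the limit on every array and Adgre1 on 1 Ahr-ko array. Lyz2, Cd14, C1qa, S100a8, S100a9 and Mrc1 were below it on every array. None of the 9 Langerhans cell markers and none of 8 mast cell markers passed the test.

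Among 6 markers of NK cells and ILC, 3 passed as higher in Ahr-ko (Eomes, Ncr1 and Klri2), with means of 9.22 to 9.82 in Ahr-ko and 8.39 to 8.74 in Ahr-het. Klrb1c (NK1.1) had a log2 fold change of -0.83, with an adjusted p of 0.308 from limma and of 0.00169 with the replicate number as a block, and Nkg7 and Gzma passed neither test. Eomes alone differed by 3.46. Of 6 αβ T cell markers 3 were higher and 1 lower, with means of 9.07 to 9.13 in Ahr-ko and 8.59 to 8.66 in Ahr-het. Of 7 markers of γδ T cells of the IL-17 type 2 were higher (Ccr2 and Cd163l1), with means of 8.63 to 8.64 in Ahr-ko and 7.68 to 8.00 in Ahr-het. The other 5 did not pass, and over the 7 the median log2 fold change was 0.03 and the largest 4.25. Under the block Maf was called as lower too (adjusted p = 0.0337 from limma). Of the 10 DETC and T cell markers, Ptprc was higher in Ahr-ko by 0.47 (adjusted p = 0.0437 from limma and 0.02 with the block). Klrk1 was called as higher under the block only (0.0394). The part of NK cells, ILC, αβ T cells and IL-17 type γδ T cells in the higher level of Il17ra was not tested. Nor was the part of keratinocytes and myeloid cells in the lower levels of Il10ra, Il6st, Il6ra and Il34 tested.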

How the data were processed

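RNA of sorted DETC was measured on 3 Ahr-ko and 3 Ahr-het arrays, grouped by the sample labels. The authors deposited log2 values normalized by RMA over all arrays, with limma 3.38.3 named in the submitters' processing notes, and the build of the probe sets is not given in the sources used here. A deposited table that pairs probe sets with gene IDs and symbols gave the names, and its columns of the authors' own comparison (log2 fold changes, p-values and scores) were not used.

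Of 29129 probe sets, 20435 name a gene. The brightest probe set stood for each of the 86 genes with several, which left 20300 genes, and each of the 63 interleukin genes had 1. Gene IDs were found in the RefSeq table of GRCm38.p6 for 20199 genes, the 63 included. Levels of the interleukin genes were not compared with each other, as probes differ in brightness. The background limit does set each gene against other genes, so calls above it are subject to the same difference.

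For Ahr-ko over Ahr-het, limma 3.58.1 (lmFit, then eBayes) was run in R 4.3.3, two-sided, with Benjamini-Hochberg adjustment over the 20300 genes and a threshold of 0.05. The code was tested on simulated arrays. A gene counted as above background in a genotype only if above the limit on all 3 arrays. The number of arrays limits the precision.

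Deviations from the group means correlated at 0.572, 0.369 and 0.207 for equal replicate numbers 1, 2 and 3, all over 0.1, so equal numbers were treated as pairs, although the labels do not say what they stand for and unequal numbers 2 and 3 also correlated (0.236 and 0.336). Values with the number as a block are given where they change a call.

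The interleukin genes, the partner lists and the marker lists were chosen with earlier results of these data known. Full statistics are given for genes past the threshold or at an unadjusted p under 0.05, and values per array for these and for genes above the limit on all arrays of a genotype. Il10, Il1a, Il1b, Il1rl2, Il23a and Il3 were chosen after their values were seen. Alternatives were the block, further normalization, median centring, a filter on dim genes, other probe set choices, array weights, other limits and leaving out arrays.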

Additional observations from a re-analysis of the deposited data

How the results depend on the processing

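The count of 4 interleukin genes past the threshold was 7 with array weights and 9 with the replicate number as a block, and ran from 3 to 4 when 1 array was left out. The count of 3 partner genes was 8 with array weights, 10 with the replicate number as a block and 9 without both replicate 1 arrays, and ran from 3 to 4 with 1 array left out. Over all genes the 638 calls became 1716 with array weights, 1538 with the replicate number as a block and 1147 without both replicate 1 arrays, and ran from 342 to 644 with 1 array left out, with 342 without Ahr-ko replicate 3, 355 without Ahr-het replicate 2 and 371 without Ahr-het replicate 3. Of the interleukin genes, 22 were above the limit in at least 1 genotype, against 13 with a limit at the 99th percentile and 10 with a limit from tissue-restricted genes of other organs. This count was 22 whichever array was left out.

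The 9 genes with an unadjusted p under 0.05 kept the direction of their fold change in all 125 fits under alternatives. Il10ra, Il6st and Il17ra passed the threshold in every one of their fits, and Il6ra lost its call in 5 (adjusted p = 0.0573 from limma over all probe sets, and 0.0862 to 0.127 without Ahr-ko replicate 2 or 3 or Ahr-het replicate 2 or 3). Il34 passed in 5 fits (adjusted p = 0.00904 with array weights, 0.0447 with dim genes left out, 0.0479 with quantile normalization, 0.0299 without both replicate 1 arrays and 0.0282 with the block). Il27ra passed in 3, Il3ra in 2 and Il10rb in 1, and Il20ra in none. The cause of these changes was not tested. For the 41 genes above the limit on all 3 arrays of neither genotype no fold was read, and 3 arrays a genotype limit the precision of the rest.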
